A study of Mus musculus with 8 samples.

Results

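The EGF receptor family and its ligands are described here by 10 genes: the ligands Areg, Ereg, Egf, Tgfa, Hbegf and Btc and the receptors Egfr, Erbb2, Erbb3 and Erbb4. The genes were chosen by name. Each was represented by the probe set that the platform annotation pairs with that gene alone, the brightest of them if there were several. Of the 10 genes 9 had such a probe set, a single one each, among 19938 genes tested. No probe set carried the name Areg alone, so amphiregulin was not analysed here.

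RNA came from the mammary glands of 8 virgin female mice of a C57BL/6 x FVB background, 5 weeks old. All 8 carried MMTV-Cre, a recombinase driven by a mammary tumour virus promoter that is active in mammary epithelium. In 4 mice both copies of Sox9, a transcription factor of epithelial progenitors, were floxed, that is, placed between recombination sites (flox/flox). The 4 controls carried a floxed and a wild-type copy (flox/+), so they too had Cre and a recombinable copy of Sox9. Glands were sampled at the fourth mammary fat pad, next to its lymph nodes. RNA of a gland went onto a single Affymetrix Gene 1.0 ST array, and the gland held fat, stroma, vessels and immune cells beside the ducts. In such whole tissue, fewer cells of a type and less RNA per cell cannot be told apart. Tissue identifiers in the labels begin with R in all 4 controls and with S or T in the flox/flox glands. The labels do not say what the letters mark, and whatever they mark cannot be told apart from genotype. Array number, 4 per genotype, limits the precision. All intensities below are on a linear scale after quantile normalization of the arrays. Intensities of different genes are not set against each other, since probes differ in affinity, and values near the bottom of the scale cannot be told from background.

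EGF family ligands are made as membrane-anchored precursors, cut free by ADAM proteases, and bind receptor tyrosine kinases that signal in pairs. EGFR and ERBB4 bind ligand and signal through their own kinase, ERBB2 has no known soluble ligand and serves as partner, and ERBB3 binds neuregulins but has little kinase activity of its own. In the pubertal mammary gland, amphiregulin from oestrogen-responsive luminal cells acts on EGFR in the stroma and drives the growth of ducts. Sox9 loss in the epithelium was therefore compared with control glands for every ligand and receptor that could be read.

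The starts of the genes show how the members differ as DNA. RefSeq (GRCm38.p6) windows of 250 bases before a gene start were examined for 7 of the 10 genes. They made 8 windows, since Egf has more than 1 listed start. No window was on hand for Ereg and Erbb3, and Hbegf was left out of the search and not examined. In 0 of the 8 windows was there a SOX core sequence, searched on both strands as ACAAAG with T allowed for its opening A and for its last A, while 39.4% of all 32851 such windows held one. Areg is shown for its TATA and cyclic AMP response sequences, Egfr as the receptor of the stroma, and Erbb4 as the receptor with the smallest p in the comparison of genotypes. The runs are 5′ to 3′ on the strand of the gene, and capitals mark TGACGTCA (the cyclic AMP response element, 1.55% of all windows), GGGCGG on either strand (a GC box, 32.7%) and TATAAA on the strand of the gene (7.59%).
Areg, chr5:91139349-91139598, plus strand: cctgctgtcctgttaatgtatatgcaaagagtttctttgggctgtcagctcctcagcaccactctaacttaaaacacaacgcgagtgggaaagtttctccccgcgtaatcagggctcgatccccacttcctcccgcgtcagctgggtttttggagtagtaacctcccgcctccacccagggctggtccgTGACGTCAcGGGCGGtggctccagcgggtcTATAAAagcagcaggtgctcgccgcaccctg
Egfr, chr11:16751953-16752202, plus strand: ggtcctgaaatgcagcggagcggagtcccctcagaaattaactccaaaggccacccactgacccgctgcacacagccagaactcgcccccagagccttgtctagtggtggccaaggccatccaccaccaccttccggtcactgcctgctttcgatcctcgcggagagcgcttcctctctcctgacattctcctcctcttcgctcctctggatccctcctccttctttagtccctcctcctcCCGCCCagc
Erbb4, chr1:69108060-69108309, minus strand: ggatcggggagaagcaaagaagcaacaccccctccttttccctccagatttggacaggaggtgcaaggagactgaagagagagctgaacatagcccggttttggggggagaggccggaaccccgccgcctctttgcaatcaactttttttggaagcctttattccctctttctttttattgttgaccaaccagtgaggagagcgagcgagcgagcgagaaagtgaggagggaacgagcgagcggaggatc
The Areg window held 1 match to each of the 3 other sequences, TGACGTCA beginning 61 bases, GGGCGG 52 bases and TATAAA 31 bases before the start. The Egfr window held 1 GC box, 9 bases before the start, and no TATAAA. The Erbb4 window held none of the searched sequences, nor did the windows of Egf, Btc and Erbb2, and the Tgfa window held 2 GC boxes. These matches are letters in a window, not sites of binding. G and C made up 54% of the Erbb4 window, 60.8% of the Egfr window and 69.2% of the Tgfa window, against a median of 52.4% over all windows.

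Sox9 (probe set 10382328) checks the labels. It read 424, 448, 401 and 366 in the flox/+ glands and 298, 356, 287 and 351 in the flox/flox glands, without overlap. The log2 difference, flox/flox minus flox/+, was -0.33 ± 0.09 (SE; limma adjusted p = 0.256), and no label says which part of the gene is removed or whether the probes lie there. Over all genes 8 (0.0401%) passed limma's test at an adjusted p under 0.05, 2047 (10.3%) had an unadjusted p under 0.05, and 1175 (5.89%) had values that did not overlap between the genotypes. Mammary markers were read in every array: the luminal keratin Krt8 lay between 2289 and 2951, the epithelial adhesion molecule Epcam between 839 and 1296 and the fat hormone adiponectin (Adipoq) between 4949 and 6398. The summed intensity of 12 B and T cell markers was 5199 in flox/+ replicate 2 against 1361 in the lowest control and 1383 to 1513 in the flox/flox glands, so results that turn on a small difference are also given without that array. Among cell cycle genes all 17 measured had negative differences, with a median of -0.44, and 1 of them, the spindle motor Kif11, passed the test. Their part in the values of the EGF family was not tested.

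No ligand or receptor of the 9 passed limma's test for a difference between the genotypes, which does not show that they were equal. An unadjusted p under 0.05 was seen for 2 (Ereg, lower, and Erbb4, higher), and in 0 of 9 did the values of the genotypes stand apart, as 3.16% of all genes did with flox/flox lower and 2.73% with flox/flox higher. The share of all genes lower at that unadjusted level was 5.46% and the share higher 4.8%. The median log2 difference of the 9 was -0.017, with 4 positive and 5 negative, against -0.0066 over all genes. That sign turned with the scaling: 6 were positive and 3 negative both without normalization between arrays (median 0.021, against 0.015 over all genes) and under median centring (0.020, against 0.013). The median was 0.067 with the fibroblast score as a covariate. With 1 array left out the median lay between -0.051 (without flox/+ replicate 2) and 0.058 (without flox/flox replicate 2). All 9 differences lay between -0.23 (Ereg) and 0.18 (Erbb4). For Egfr, Erbb2, Erbb3, Btc, Tgfa, Egf and Hbegf the 95% intervals spanned 0, and the widest, that of Erbb3, ran from 19.5% lower to 21.3% higher.

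**Figure D1:**
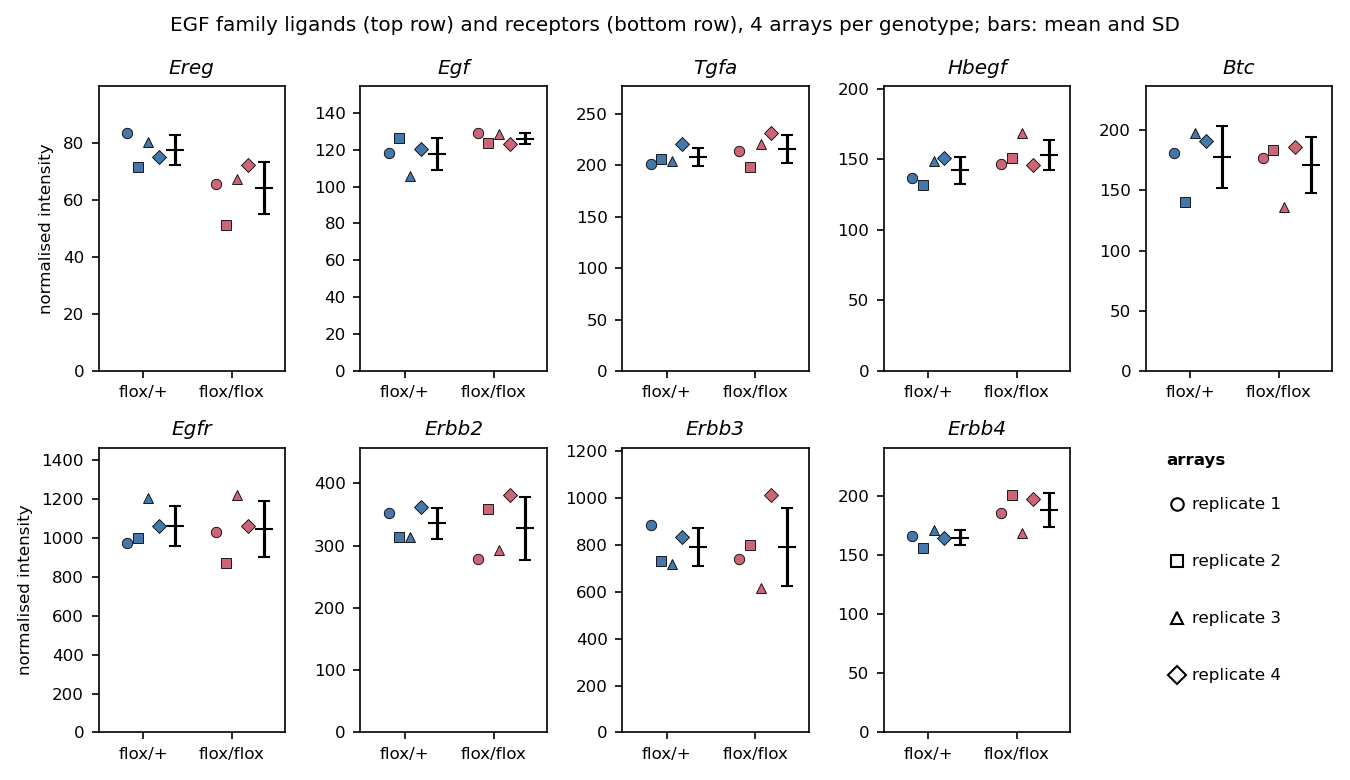
Normalised intensity (y axis, linear, from 0) of each ligand in the top row and each receptor in the bottom row, for 4 flox/+ and 4 flox/flox glands; each point is an array, its shape the replicate number, and the bar gives mean and SD. The genotypes overlap in every panel; Ereg lies lowest in flox/flox replicate 2 at 51.1, and Erbb3 spreads from 615 to 1014 within flox/flox.

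Ereg encodes epiregulin, a ligand of EGFR and ERBB4. It read 83.2, 71.6, 80.2 and 74.8 in the flox/+ glands and 65.5, 51.1, 67.1 and 72.3 in the flox/flox glands. Of the flox/flox glands 3 lay below every control, and replicate 4 lay above the lowest control. Ereg lay in the lowest 1 in 3 genes by mean level, where readings may not be told from background. The means were 77.4 ± 5.23 and 64.02 ± 9.11 (SD, n = 4), in control and flox/flox glands in that order. The log2 difference was -0.23 ± 0.090 (SE; 95% interval -0.43 to -0.030), with an unadjusted limma p of 0.0277 and an adjusted p of 0.424. An exact permutation test of the 70 assignments of arrays, 2-sided, gave p = 0.0571, where 0.0286 is the smallest it can give. The lowest reading, in flox/flox replicate 2, carried part of the difference: without that array it was -0.15 (limma adjusted p = 0.615). Without flox/+ replicate 2, the array with the B and T cell markers, it was -0.26.

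Egf, the founding ligand of the family, read 118, 126, 106 and 121 in control glands and 129, 124, 128 and 123 in flox/flox glands. The flox/flox values sat close together, and 1 control, replicate 2, lay among them. Like Ereg, Egf lay in the lowest 1 in 3 genes by mean level. Its means were 118 ± 8.61 and 126 ± 3.05 (SD, n = 4), with a log2 difference of 0.089 ± 0.067 (SE; limma adjusted p = 0.691), which was 0.045 without flox/+ replicate 3. Tgfa, whose product TGF-alpha binds EGFR, read 201, 206, 205 and 221 in control and 214, 198, 221 and 231 in flox/flox glands. The lowest value of all 8 lay in a flox/flox gland and so did the highest. Its log2 difference came to 0.048 ± 0.068 (SE; limma adjusted p = 0.850), with an interval from 6.80% lower to 14.7% higher. It was 0.017 without flox/flox replicate 4, 0.085 without flox/flox replicate 2 and 0.075 without flox/+ replicate 4.

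Hbegf encodes heparin-binding EGF, a ligand of EGFR and ERBB4. It read 137, 132, 149 and 151 in control glands and 147, 151, 168 and 146 in flox/flox glands, where replicate 3 stood highest. Its log2 difference came to 0.096 ± 0.072 (SE; limma adjusted p = 0.691), and was 0.054 without flox/flox replicate 3 and 0.064 without flox/+ replicate 2. Btc encodes betacellulin, also a ligand of both receptors. It read 181, 140.0, 197 and 191 in control glands and 177, 184, 136 and 186 in flox/flox glands. In each genotype 1 array read about the same low level, flox/+ replicate 2 and flox/flox replicate 3, and the others lay together. Betacellulin's log2 difference came to -0.049 ± 0.12 (SE, limma adjusted p = 0.928). Its sign turned without flox/flox replicate 3 (0.046) or without flox/+ replicate 3 (0.0011), and it was -0.15 without flox/+ replicate 2.

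Ereg, Areg and Btc lie side by side on mouse chromosome 5, in the order Epgn, Ereg, Areg and Btc with no other protein-coding gene of RefSeq between them. The neighbours with a reading differed in sign: 0.13 ± 0.080 for Epgn, which encodes epigen, -0.23 ± 0.090 for Ereg and -0.049 ± 0.12 for Btc (log2 differences with SE, limma), none of them past the test. Epgn was 0.077 without flox/flox replicate 2 and 0.079 without flox/+ replicate 4, and Btc turned sign as given above.

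Erbb4, the neuregulin and EGF ligand receptor, had the smallest p of the receptors. It read 166, 156, 171 and 165 in the flox/+ glands and 186, 201, 169 and 197 in the flox/flox glands. Of the flox/flox glands 3 lay above every control, and replicate 3 lay below the highest control. The means were 165 ± 6.21 and 188 ± 14.4 (SD, n = 4). The log2 difference was 0.18 ± 0.070 (SE; 95% interval 0.020 to 0.33), from 1.41% to 25.7% higher, with an unadjusted limma p of 0.0302, an adjusted p of 0.438 and an exact permutation p of 0.0571. Without flox/+ replicate 2 it was 0.15 (limma adjusted p = 0.582), and without flox/flox replicate 3 it was 0.22 (adjusted p = 0.295). In the marker lists, summed basal and myoepithelial genes lay between 18914 and 21121 in control and between 18261 and 20940 in flox/flox glands. Bright genes weigh most in that sum. As a mean z-score the list read -0.203, -0.355, -0.085 and -0.060 in control and -0.026, 0.022, -0.440 and 1.146 in flox/flox glands. Of its 14 genes 10 had positive and 4 negative differences, with a median of 0.10. Their part in the Erbb4 reading was not tested.

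Egfr, the receptor of amphiregulin, EGF and TGF-alpha, read 976, 999.9, 1209 and 1062 in control glands and 1030, 872, 1222 and 1063 in flox/flox glands. Its highest values came from replicate 3 of each genotype, and its lowest from flox/flox replicate 2. The means were 1062 ± 105 and 1047 ± 143 (SD, n = 4), and the log2 difference was -0.025 ± 0.11 (SE; limma adjusted p = 0.962). The 95% interval ran from 16.4% lower to 15.4% higher, and the sign was positive without normalization between arrays (0.011) and under median centring (0.0096). It was also positive without flox/+ replicate 3 (0.039) or flox/flox replicate 2 (0.058).

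Erbb2, the partner receptor without a ligand of its own, read 352, 315, 315 and 362 in control and 278, 359, 293 and 382 in flox/flox glands. The flox/flox glands held both the lowest and the highest readings. The log2 difference was -0.042 ± 0.10 (SE; limma adjusted p = 0.930), with an interval from 17.1% lower to 13.8% higher, and its sign turned without flox/flox replicate 1 (0.029) or 3 (0.0049). A further probe set that the annotation shares between Erbb2 and Sympk was not used for either gene.

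Erbb3, the neuregulin receptor that signals through its partners, read 887, 730.3, 720 and 835 in control and 741, 801, 615 and 1014 in flox/flox glands. Here too the flox/flox glands held the lowest and the highest value. The means were 793 ± 81.4 and 793 ± 166 (SD, n = 4). The log2 difference was -0.017 ± 0.13 (SE; limma adjusted p = 0.982), and it was 0.021 without normalization between arrays and 0.020 under median centring. With 1 array left out it lay between -0.14 (without flox/flox replicate 4) and 0.094 (without flox/flox replicate 3).

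Members differed in how far they spread among glands of the same genotype. The SD within genotypes on the log2 scale, pooled over both, was 0.23 for Erbb3, at or above that of 91.6% of all genes, 0.20 for Btc (86.5%), 0.17 for Egfr (77.7%) and 0.17 for Erbb2 (76.4%). It was 0.13 for Ereg (60.2%), 0.087 for Hbegf (22.9%), 0.081 for Erbb4 (18.9%), 0.074 for Tgfa (13.8%) and 0.071 for Egf (11.99%), with 0.12 for the median gene. The 95% interval of the genotype difference was accordingly widest for Erbb3 (± 0.30) and narrowest for Egf and Tgfa (± 0.15).

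**Figure D2:**
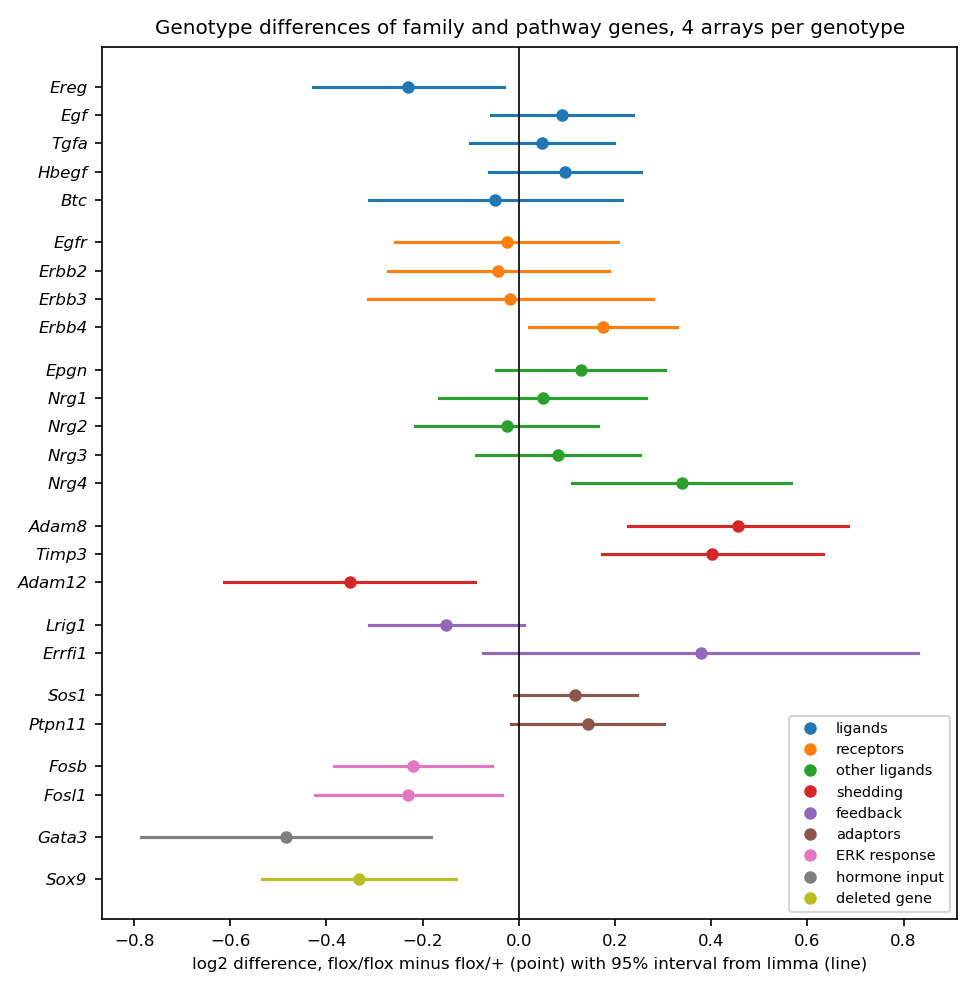
Log2 difference, flox/flox minus flox/+ (x axis; point), with limma's 95% interval (line) for each ligand and receptor and the named genes of the pathway, coloured by role, from 4 arrays per genotype. The intervals of 7 of the 9 members cross 0; Ereg lies at -0.23 and Erbb4 at 0.18, and Adam8 at 0.46 and Gata3 at -0.48 lie farthest from 0 in each direction.

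The receptors' spread was set beside cell type markers, as mean z-scores of a marker list in each array. In the shared luminal list flox/flox replicate 4 stood highest (1.152) and flox/flox replicate 1 lowest (-0.999), and Erbb2 was highest (382) and lowest (278) in the same glands. Over the 8 arrays Erbb2 and the luminal score had a Pearson's r of 0.889 (exact permutation p = 0.00315, adjusted p = 0.113) and a Spearman's rho of 0.952 (exact permutation p = 0.00114, adjusted p = 0.0411), and r was 0.893 after the mean of each genotype was taken off. Without the 2 arrays farthest from the median score, r was 0.745 over 6 arrays (exact permutation p = 0.1), so at that number the relation was not shown. Erbb3 had r = 0.763 with the same score (exact permutation p = 0.0286, adjusted p = 0.234; rho = 0.762, exact permutation p = 0.0368), and r = 0.681 without the same 2 arrays (exact permutation p = 0.133), with the same limit.

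Egfr was instead compared with the score of fibroblast and matrix genes. The score was lowest in flox/flox replicate 2 (-1.21), where Egfr read 872, and highest in flox/+ replicate 3 (1.19), where Egfr read 1209. Pearson's r was 0.865 (exact permutation p = 0.00913, adjusted p = 0.164), rho was 0.833 (exact permutation p = 0.0154) and r of the deviations from the genotype means was 0.902. Without those 2 arrays r was 0.585 over 6 arrays (exact permutation p = 0.231), so at that number the relation was not shown. Leaving out the most extreme scores also narrows their range, so it cannot tell whether the relation rests on those arrays. Against the luminal score Egfr had r = -0.0188 (exact permutation p = 0.966).

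Erbb4 had r = 0.677 with the basal and myoepithelial score (exact permutation p = 0.0325, adjusted p = 0.234). Its rho was 0.738 (exact permutation p = 0.0458), and r of the deviations from the genotype means was 0.655. Without the 2 arrays farthest from the median score, flox/flox replicates 3 and 4, r was 0.817 (exact permutation p = 0.0417). Of the arrays left, flox/flox replicates 1 and 2 had the highest scores and the highest Erbb4 readings. That last r therefore cannot be told apart from the genotype difference. Erbb3 also had r = 0.784 with the basal score (exact permutation p = 0.0207, adjusted p = 0.234), and 0.0841 without the same 2 arrays. These hold the lowest and the highest basal score. Leaving them out narrows the range, so it cannot tell whether the relation rests on them. In all 36 relations were computed, 9 genes by 4 scores (shared luminal, basal, fibroblast and white adipocyte). These 4 were picked from 13 cell type lists with earlier results known. The adjustment covers the 36 relations alone and not the lists set aside. By Pearson's r 5 had an unadjusted exact permutation p under 0.05 and 0 stayed under it after Benjamini-Hochberg adjustment. By Spearman's rho the counts were 5 and 1, the latter being Erbb2 with the luminal score.

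**Figure D3:**
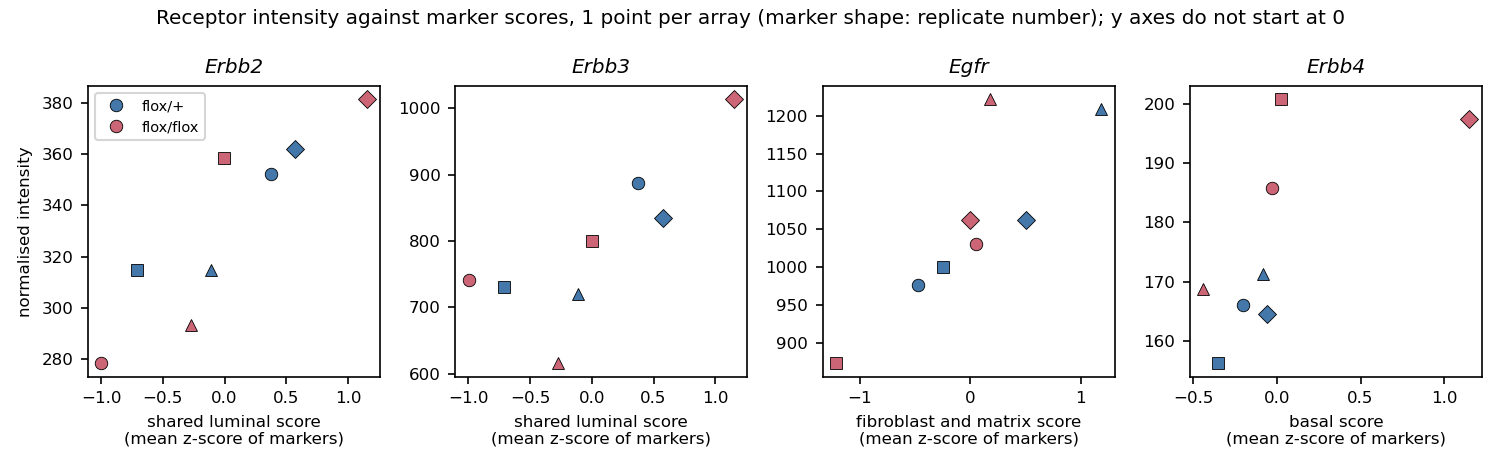
Normalised intensity of 4 receptors (y axes, which do not start at 0) against the mean z-score of a marker list (x axes) in the 8 arrays, coloured by genotype with the replicate number as shape. Erbb2 lies lowest, at 278, and highest, at 382, in the arrays with the lowest and the highest luminal score, and Egfr lies lowest, at 872, in the array with the lowest fibroblast score.

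For genes whose log2 values spanned more than 0.5 over the arrays, Ereg and Erbb3, the 3 genes of most similar pattern were sought among the genes at or above the median level, 9969 for Ereg and 9968 for Erbb3. Those for Ereg were Cpne6 (Pearson's r = 0.969 over 8 arrays), Col13a1 (0.967) and Shc4 (0.949). Those for Erbb3 were Smim3 (0.964), Arhgap32 (0.960) and Rab5a (0.956). As the highest of so many candidates over 8 arrays that share a normalization, these values are a description with no test.

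Of the other ligands of the family, 5 of 5 were measured and 0 passed limma's test. Nrg4, which encodes neuregulin 4, an ERBB4 ligand known as a secreted product of brown fat, was the 1 with an unadjusted p under 0.05. Of all genes 10.3% had such a p. Nrg4 read 1364, 1183, 1232 and 1469 in control and 1735, 1643, 1396 and 1896 in flox/flox glands. Replicate 3 of flox/flox lay within the control range and the other 3 above it. The log2 difference was 0.34 ± 0.10 (SE; limma adjusted p = 0.288), and 0.29 without flox/+ replicate 2. Summed white adipocyte markers, 12 measured, lay between 51631 and 58618 in control and between 50941 and 60526 in flox/flox glands. No marker list covered brown fat, and the part of fat cells in the Nrg4 reading was not tested. The neuregulins Nrg1 (0.050 ± 0.098), Nrg2 (-0.025 ± 0.086) and Nrg3 (0.081 ± 0.077) had log2 differences (with SE) whose 95% intervals spanned 0. Nrg3 lay in the lowest 1 in 3 genes by mean level. With 1 array left out Nrg1 reached -0.049 (without flox/flox replicate 3), Nrg2 0.040 (without flox/flox replicate 1), and Nrg3 0.046 (without flox/+ replicate 4) and 0.13 (without flox/+ replicate 3). Erbb4 and its ligand Nrg4 both had positive differences with unadjusted p under 0.05, neither past the adjusted threshold. Ereg, also a ligand of ERBB4, reached that unadjusted level with a negative log2 difference (-0.23). Of the ERBB4 ligands Btc and Hbegf, Btc was negative (-0.049) and Hbegf positive (0.096). The ligands of ERBB4 therefore did not share the sign of Erbb4.

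Ligand precursors are cut by ADAM proteases, and 14 of 15 genes for shedding and trafficking were measured, with 9 positive differences, a median of 0.037 and 0 past limma's test. That median lay between 0.012 (without flox/flox replicate 2) and 0.056 (without flox/flox replicate 4) with 1 array left out. Unadjusted limma p under 0.05 was seen for 3 (21.4%), against 10.3% of all genes. Values without overlap were seen for 2, against a share of 5.89% over all genes. Adam8, a protease of myeloid cells, read 191, 223, 201 and 189 in control and 343, 236, 279 and 276 in flox/flox glands, without overlap. Its log2 difference was 0.46 ± 0.10 (SE; limma adjusted p = 0.180). Summed macrophage markers, 11 measured, lay between 6937 and 11111 in control and between 7803 and 11459 in flox/flox glands, and their part in the Adam8 reading was not tested.

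Timp3, the inhibitor of the main ligand sheddase ADAM17, read 1771, 1733, 1749 and 1553 in control and 2649, 2487, 1964 and 1986 in flox/flox glands, again without overlap. Its log2 difference was 0.40 ± 0.10 (SE; limma adjusted p = 0.239). Adam12, a protease of stromal cells, read 653, 628, 741 and 656 in control and 522, 426, 666 and 493 in flox/flox glands. All but replicate 3 of the flox/flox glands lay below the controls. Its log2 difference was -0.35 ± 0.12 (SE; limma adjusted p = 0.330) and -0.25 with the fibroblast score as a covariate. Summed fibroblast and matrix markers, 17 measured, lay between 56754 and 73049 in control and between 50815 and 64008 in flox/flox glands.

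Feedback inhibitors, which end the signal by blocking or degrading receptors and kinases, were measured for 23 of 23 genes. Of these 13 had positive differences, the median was 0.019, and 0 passed limma's test or had an unadjusted p under 0.05. With 1 array left out the median lay between 0.0029 (without flox/+ replicate 4) and 0.049 (without flox/+ replicate 1). It was 0.058 without normalization between arrays, against 0.015 over all genes. The genes with the smallest p were Lrig1, a membrane protein that promotes receptor breakdown (-0.15 ± 0.073 SE, limma adjusted p = 0.515), and Errfi1, a cytoplasmic inhibitor of EGFR (0.38 ± 0.20 SE, adjusted p = 0.565). Errfi1 varied widely between control glands, from 792 to 1383, and between flox/flox glands, from 962 to 1770.0, and its difference was 0.24 without flox/+ replicate 1.

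Adaptors and kinases were measured for 26 of 31 genes. Of these 19 had positive differences, with a median of 0.051, against 47.4% positive and -0.0066 over all genes. None passed limma's test, and 0 had an unadjusted p under 0.05. Sos1, the exchange factor that switches on RAS, read 332 to 353 in control and 362 to 373 in flox/flox glands, without overlap (0.12 ± 0.058 SE, limma adjusted p = 0.520). Ptpn11, the phosphatase SHP2 that carries signal from receptors to RAS, read 837 to 932 in control and 903 to 1062 in flox/flox glands (0.14 ± 0.072 SE, adjusted p = 0.538; 0.095 without flox/flox replicate 2). The median of this list was 0.087 without normalization between arrays, against 0.015 over all genes. Under median centring it was 0.085, against 0.013 over all genes, and it was 0.032 without flox/+ replicate 3.

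Genes known to respond to ERK, the kinase at the end of the RAS branch, were measured for 20 of 20. Of these 13 had negative differences, with a median of -0.041, and 0 passed limma's test. That median lay between -0.087 (without flox/flox replicate 3) and -0.0048 (without flox/+ replicate 1), and 11 were negative without normalization between arrays. Fosb, a member of the AP-1 transcription factor, read 154, 162, 167 and 164 in control and 153, 142, 123 and 130.3 in flox/flox glands, without overlap. Its log2 difference was -0.22 ± 0.074 (SE; limma adjusted p = 0.330). Fosl1, another AP-1 member, read 143 to 192 in control and 130.3 to 149 in flox/flox glands (-0.23 ± 0.088 SE, adjusted p = 0.407).

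A list of genes for the hormone input to Areg, which oestrogen induces in hormone-sensing luminal cells, was measured for 9 of 10 genes. Of the 9, 8 had negative differences, with a median of -0.080. It was -0.052 without flox/+ replicate 1, and -0.044 without normalization between arrays, where 7 of the 9 were negative. None passed limma's test. Gata3, a transcription factor of luminal fate, read 1188, 1047, 1062 and 1116 in control and 631, 842, 678 and 1046 in flox/flox glands, without overlap but with flox/flox replicate 4 close to the lowest control. Its log2 difference was -0.48 ± 0.14 (SE; limma adjusted p = 0.259), and -0.47 with the luminal score as a covariate (adjusted p = 0.141). In a list of hormone-sensing markers 12 were measured. It shares genes with the hormone input list, Gata3 and Esr1 among them, so the counts of the lists are not independent. Their sum lay between 8085 and 9304 in control and between 7683 and 8411 in flox/flox glands. Of these 12, 9 had negative and 3 positive differences, and 0 passed limma's test (smallest adjusted p = 0.0501). Among the 9 genes of the hormone input list, Esr1, the oestrogen receptor, had the sole positive difference (0.15 ± 0.082 SE, limma adjusted p = 0.571).

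Over the 97 measured genes of the pathway that are not members, 0 passed limma's test, 7 (7.22%) had an unadjusted p under 0.05 against 10.3% of all genes, and 5 had values without overlap (5.89% of all genes): Adam8, Timp3 and Sos1 higher, Fosb and Gata3 lower.

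**Figure D4:**
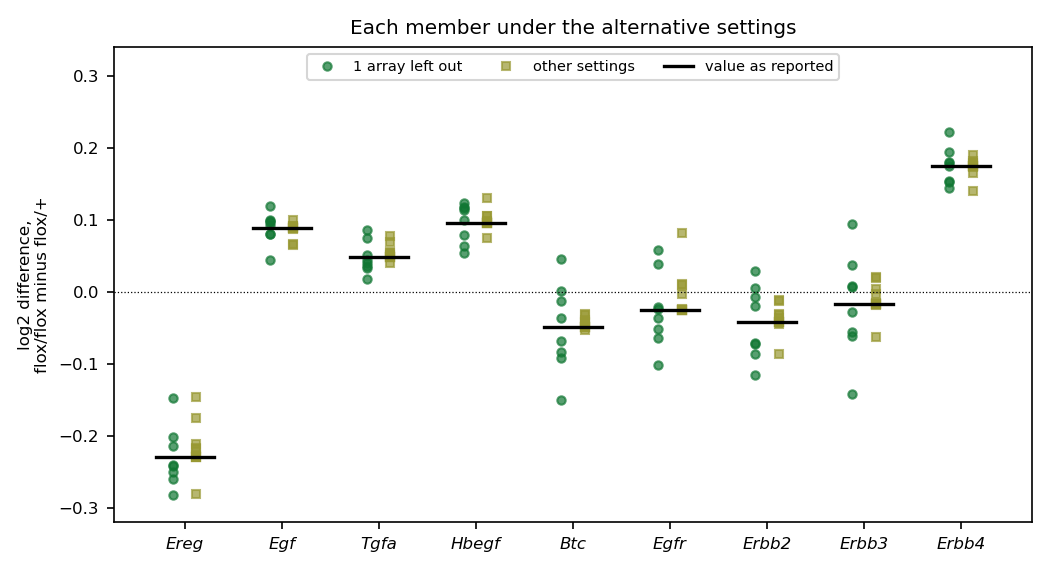
Log2 difference, flox/flox minus flox/+ (y axis), of each member as reported (black line), with each array left out in turn (green circles) and under the other processing settings (olive squares). Ereg stays between -0.28 and -0.15 and Erbb4 between 0.14 and 0.22, while Btc, Egfr, Erbb2 and Erbb3 scatter on both sides of 0.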

How the data were processed

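Total RNA was purified with a Qiagen RNeasy kit, per the labels' protocols. The authors deposited intensity values on a linear scale. The submitters' processing notes name PLIER and Affymetrix Expression Console 1.0. The sources used here do not give the background correction or the normalization between arrays, and the table holds no detection calls. Deposited medians lay between 159 and 178 per array, and the number of columns without a sample is 0.

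Of 35557 probe sets 21789 had 1 gene symbol, which gave 19938 genes. Values were offset by 16, taken to log2 and quantile normalized, because array percentiles differed by up to 0.245. Fold changes therefore carry the offset. The comparison of genotypes used lmFit and eBayes of limma 3.58.1 (R 4.3.3), with Benjamini-Hochberg adjustment over all genes and 0.05 as threshold. Signed differences give flox/flox less flox/+.

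Members, gene lists and the correlations with scores were chosen with earlier results of these data known. Named genes are the members, the other ligands, list genes with unadjusted p under 0.05 (at most 6 per list, or the 2 with the smallest p), genes a small count refers to, and like genes. Esr1 was named after its value was seen. Equal replicate numbers did not pair arrays: correlations of their deviations were -0.204, 0.0625, 0.209 and -0.0948. The labels do not say that the glands of a genotype came from separate litters, so p-values measure the spread between these arrays. Alternatives were another normalization, offset, filter, probe set rule, moderation, threshold, covariates, a replicate block and each array left out. The fit was tested on simulated data.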

Additional observations from a re-analysis of the deposited data

How the results depend on the processing

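The count of members past the threshold was 0 and that of other pathway genes 0 under each alternative run, with the replicate block and at an adjusted p under 0.1 included. With the replicate block the count over all genes was 8, as without it, and the Erbb4 difference of 0.18 had an unadjusted limma p of 0.0658. Ereg, Egf, Tgfa, Hbegf and Erbb4 kept their direction under each alternative that could be fitted. Ereg and Egf, and the other ligands Epgn and Nrg3, lay in the lowest 1 in 3 genes and have no value with that filter. For Ereg 14 of 20 alternatives had an unadjusted p under 0.05 and for Erbb4 15 of 21. Egfr turned positive as deposited (0.011), with median centring (0.0096), with the fibroblast score as covariate (0.081) and without flox/+ replicate 3 (0.039) or flox/flox replicate 2 (0.058). Erbb3 turned positive as deposited (0.021), with median centring (0.020), with array weights (0.0034) and without flox/+ replicate 1 (0.038) or 4 (0.0081) or flox/flox replicate 1 (0.0072) or 3 (0.094). Btc turned without flox/+ replicate 3 (0.0011) or flox/flox replicate 3 (0.046), Erbb2 without flox/flox replicate 1 (0.029) or 3 (0.0049), Nrg1 without flox/flox replicate 3 (-0.049), and Nrg2 without flox/+ replicate 2 (0.019) or flox/flox replicate 1 (0.040). At the other end, the values with 1 array left out reached -0.15 for Btc, -0.10 for Egfr, -0.12 for Erbb2, -0.14 for Erbb3, 0.12 for Nrg1 and -0.074 for Nrg2. The cause was not tested. The count over all genes, 8, was 18 with median centring, 4 with an offset of 1, 19 with an offset of 64, 3 without the lowest 1 in 3 genes, 1 with all probe sets in the fit, 17 with trend and robust options, 0 with an unmoderated statistic, 25 with the fibroblast covariate, 25 at an adjusted p under 0.1, and 2 to 19 with an array left out. The lowest came from leaving out replicate 4 of either genotype and the highest from leaving out flox/flox replicate 3.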

Other observations

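The probe set shared between Erbb2 and Sympk read 406 ± 154 in control and 515 ± 134 in flox/flox glands (SD, n = 4), a log2 difference of 0.38 ± 0.29 (SE), whose sign is opposite to that of the probe set of Erbb2 alone (-0.042). No array stood apart from the other 3 of its genotype by Dixon's criterion in the 50 groups checked over the named genes.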
